A study of Mus musculus with 22 samples.

Results

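Among the genes measured by RNA-Seq in paired samples of hippocampus (HIP) and entorhinal cortex (EC) from each mouse, 10 genes were examined whose read level differed from animal to animal by large steps and repeated almost identically in both regions of each animal: Gm13394, Akr1e1, Gm15772, Rpl29, Gm13777, Gm43305, Baiap2l1, Pttg1, Gm7224 and Gm3375. They are 10 of the 55385 genes in the count table and were chosen from their measured values, because the deviations of an animal from the mean of its group in HIP and in EC were correlated with a Pearson r over 0.99 across the 11 animals. That agreement, and the large spread that comes with it, is therefore how the genes were picked and is given below as a description without a test. The libraries came from adult male mice, 5 wild type (wt) and 6 Ts66Yah, each animal giving a HIP and an EC library, 22 in all. Ts66Yah mice model Down syndrome and carry a minichromosome with the distal part of mouse chromosome 16 (from Mir155 to the telomere) as an additional copy, from which the centromeric chromosome 17 part of the parental Ts65Dn minichromosome was removed by CRISPR/Cas9. The line descends from 1 founder, and both genotypes came from crosses on a mixed B6C3B background (C57BL/6J with a sighted C3H-derived line), so that the animals were not genetically identical outside the minichromosome.

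The libraries held between 25900479 and 50105778 counted reads. Of the genes tested from Mir155 to the end of chromosome 16, 58 of 101 in HIP and 45 of 93 in EC were higher in Ts66Yah and 0 were lower (edgeR, adjusted p under 0.05). The log2 fold changes of the tested genes in this segment had medians of 0.59 and 0.57. The tissue labels were checked with marker genes: the summed level of 6 hippocampal markers was 850 to 1021 CPM (counts scaled to library size) in HIP against 131 to 173 CPM in EC, and that of 6 cortical markers 143 to 209 CPM in HIP against 472 to 783 CPM in EC. The summed level of 5 choroid plexus markers varied from 110 to 3269 CPM between HIP libraries and was at most 40.6 CPM in EC, and striatal markers reached 168 CPM in EC. Of the 80 correlations between a marker list and a member gene across animals, 2 exceeded 0.7 in size, that of Gm7224 with the hippocampal markers (r = -0.86) and that of Gm13777 with the microglial markers (r = 0.70). Their part in the results was not tested.

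A processed pseudogene is a copy of a spliced messenger RNA that was inserted back into the genome, and an unprocessed pseudogene is a duplicated gene that has lost its function. Both can be almost letter for letter the same as the gene they came from, so that a short read is assigned to the one or to the other by the few bases that differ. Inbred mouse strains differ from each other at many such bases and in the expression of individual genes, and in a mixed cross every animal inherits its own combination, which is the same in all its tissues. Of the 10 genes, 5 are annotated as pseudogenes (Gm13394, Gm15772, Gm13777 and Gm3375 as processed, Gm7224 as unprocessed), 4 as protein coding (Akr1e1, Rpl29, Baiap2l1 and Pttg1), and Gm43305 as a processed transcript without an open reading frame annotation. They lie on 7 chromosomes and none of them on chromosome 16 or 17.

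To show how few bases separate a pseudogene from its closest coding gene, the transcripts were aligned (GENCODE M21, build GRCm38). Gm13394 (ENSMUSG00000083773, chr2:28933610-28934609, minus strand) matched Gapdh, the glycolytic enzyme glyceraldehyde-3-phosphate dehydrogenase, over all of its 1000 bases with 1 substitution, C346A. Here and below the base of the pseudogene comes first, then its position counted from the 5′ end of the pseudogene transcript, then the base of the coding gene. The stretch around it lies at chr2:28934239-28934289, is written in the direction of the transcript, and has the differing base in capitals.

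Gm13394: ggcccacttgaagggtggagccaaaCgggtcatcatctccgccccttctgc

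Gapdh: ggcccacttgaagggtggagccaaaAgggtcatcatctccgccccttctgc

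The sequenced reads were 50 bases long. Of the 951 windows of 50 bases in Gm13394, 50 occurred in no other annotated transcript, and all 50 of them held position 346. Near-identical copies, defined as at least 90% identity over at least 80% of the transcript, numbered 141 genes for Gm13394. Gm15772 (ENSMUSG00000062353, chr5:3236431-3236868, plus strand) matched the coding part of Rpl26, a protein of the large ribosomal subunit, over 438 bases with 2 substitutions, T177C and C288T. They are shown in the windows at chr5:3236582-3236632 and chr5:3236693-3236743, again with the differing base in capitals.

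Gm15772, around position 177: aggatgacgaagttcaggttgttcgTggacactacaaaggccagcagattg

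Rpl26, same stretch: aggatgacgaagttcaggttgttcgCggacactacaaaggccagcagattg

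Gm15772, around position 288: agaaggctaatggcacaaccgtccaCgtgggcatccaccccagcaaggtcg

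Rpl26, same stretch: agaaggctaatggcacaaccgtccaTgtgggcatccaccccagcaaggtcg

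Of its 389 windows, 33 occurred in no other transcript, and those 33 lay between bases 128 and 209, around position 177. Gm3375 (ENSMUSG00000107470, chr7:3181093-3181888, plus strand) matched Psmb5, a catalytic beta subunit of the proteasome, over 796 aligned bases with 8 substitutions and 1 gap base. The window at chr7:3181365-3181415 holds 2 of them, T298C and T307C.

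Gm3375: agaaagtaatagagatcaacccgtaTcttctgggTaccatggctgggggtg

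Psmb5: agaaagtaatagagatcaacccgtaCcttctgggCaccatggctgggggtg

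Of the 747 windows of Gm3375, 327 occurred in no other transcript. Gm7224 (ENSMUSG00000083623, chr7:42047948-42050212, minus strand) was most similar to Fbxo34, an F-box protein of the ubiquitin ligase machinery, at 96.1% identity with 58 substitutions. Gm13777 (ENSMUSG00000082108, chr2:91030778-91031122, minus strand) was most similar to Rplp1, an acidic protein of the ribosomal stalk, at 92.5% identity with 26 substitutions, and 291 of its 296 windows were found nowhere else. Gm13394 lies within Cfap77 and Gm7224 within Vmn2r59, both on the same strand, and the levels of these host genes averaged 0.289 and 0.00775 CPM.

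The agreement of the regions is plotted for all genes in the histogram of correlations. Over the 17232 genes tested in both regions the median r was 0.30, and 13 genes, or 0.0754%, had an r over 0.99. The 10 members are among these 13, with r between 0.991 (Gm3375) and 0.999 (Gm13394). The other genes inside the limit were AC166110.4 (r = 0.993), AC102496.1 (r = 0.991) and CR555305.2 (r = 0.991), and the nearest outside it were Gbp2b (r = 0.989) and Hdhd3 (r = 0.989). The points behind each r are 11 animals. The order of all animals was also shared to a varying degree, with Spearman's rho between the HIP and EC levels from 0.58 (Gm13394) to 0.98 (Gm43305). The standard deviation of the members between animals, from 0.76 to 2.94 on the log2 CPM scale, was at or above the 98.6th percentile of all genes, whose median was 0.14.

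**Figure D1:**
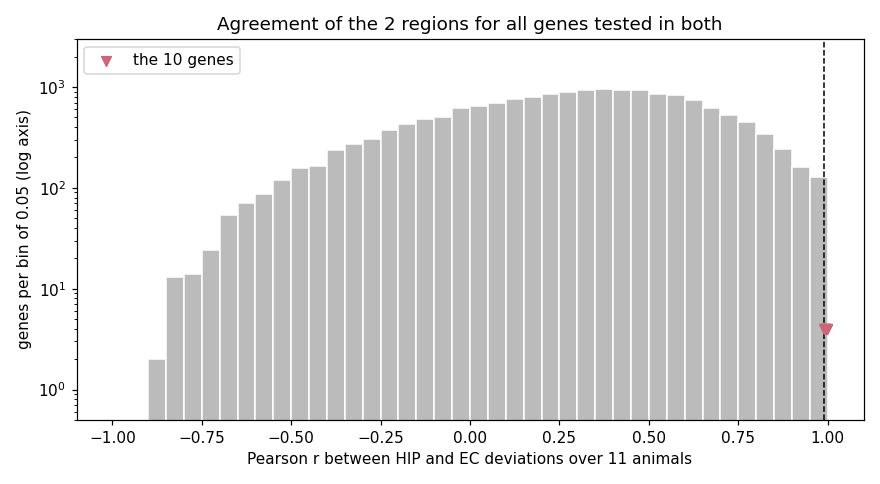
Histogram of the Pearson r between the HIP and EC deviations of each gene over the 11 animals, for 17232 genes, with genes per bin of 0.05 on a log axis. The dashed line marks r = 0.99, the limit used to choose the genes, and the triangles show the 10 genes between 0.991 and 0.999.

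Levels were separated for each gene wherever neighbouring animals, sorted by their level, lay more than 0.5 apart on the log2 CPM scale in both HIP and EC. By this description the 10 genes had 25 levels in all, of which 21 held at least 2 animals and 4 a single animal. Of the 21 levels with at least 2 animals, 17 held both wt and Ts66Yah animals. A level with more animals than either genotype has must hold both, whatever the gap. This applies to the largest levels of Gm13394, Akr1e1, Rpl29, Gm43305, Baiap2l1, Gm7224 and Gm3375, with 7 to 10 animals, all among the 17. The count of 17 therefore follows in part from the size of the levels. The counts of levels also depend on the gap, which was chosen after the values had been seen. With a gap of 0.3 there were 32 levels, of which 21 of the 26 with at least 2 animals held both genotypes, and with a gap of 1 there were 20 levels, of which 16 of 17 did. The number of levels was 3 for Gm13394, Gm15772, Rpl29, Gm13777 and Pttg1 and 2 for the other members. The plot of levels by animal shows them in every library.

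**Figure D2:**
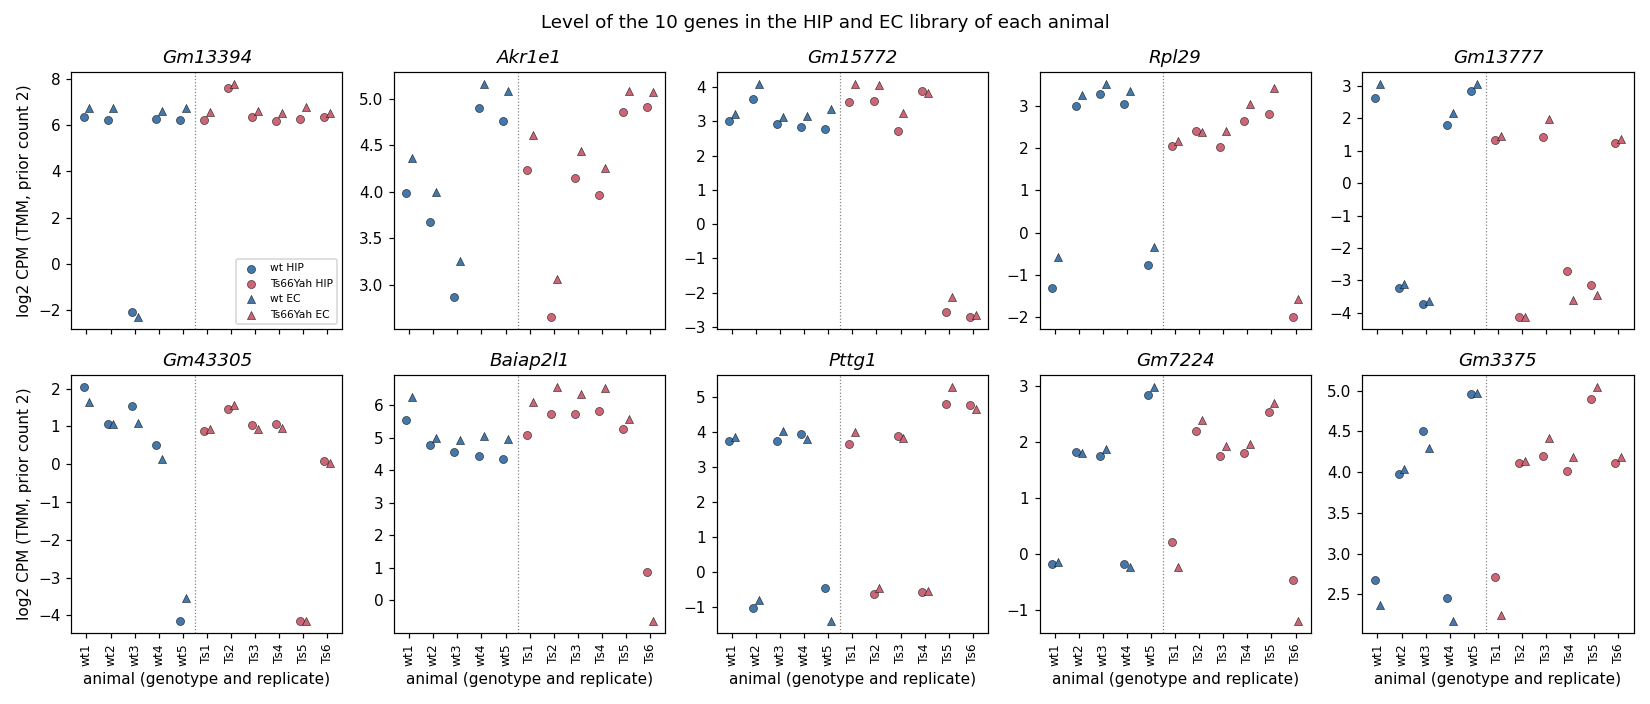
Level of each of the 10 genes in log2 CPM (TMM factors, prior count 2, a separate vertical scale per gene) in the HIP library (circles) and EC library (triangles) of the 5 wt (blue, wt1 to wt5) and 6 Ts66Yah animals (red, Ts1 to Ts6). The circle and the triangle of an animal lie close together, and with a gap of 0.5 between levels, 17 of the 21 levels shared by at least 2 animals hold both genotypes. Levels of more than 6 animals must do so.

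The Gm13394 level in HIP was 81.3, 75.6, 0.176, 75.7 and 75.5 CPM in wt replicates 1 to 5, and 75.1, 197, 82.6, 71.5, 77.2 and 80.6 CPM in Ts66Yah replicates 1 to 6. In EC it was 108, 106, 0.144, 97.3 and 107 CPM in wt and 95.5, 222, 96.4, 93.0, 111 and 91.0 CPM in Ts66Yah. Thus 9 animals, 4 wt and 5 Ts66Yah, shared a middle level, wt replicate 3 was almost without reads (9 counts in HIP and 6 in EC), and Ts66Yah replicate 2 stood above all others. Gapdh itself was listed at 3.37 to 4.53 CPM in HIP and 1.49 to 3.998 CPM in EC, below Gm13394 in every animal but wt replicate 3. How reads that match several near-identical copies were counted is not known. These values are therefore assigned reads and need not reflect the level of Gapdh messenger RNA.

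The Gm15772 level in HIP was 8.06, 12.5, 7.51, 7.06 and 6.77 CPM in wt replicates 1 to 5, and 11.8, 12.0, 6.56, 14.7, 0.113 and 0.0953 CPM in Ts66Yah replicates 1 to 6. The EC values fell into the same levels, with 0.104 and 0.175 CPM in Ts66Yah replicates 6 and 5, 8.67 to 10.3 CPM in 5 animals, and 14.2 to 17.1 CPM in 4 animals. The lowest level rests on 3 to 5 counts per library. Rpl26 took the opposite order. Its HIP level was 71.9 and 66.2 CPM in Ts66Yah replicates 5 and 6, the animals with the lowest Gm15772, and 27.4 to 58.3 CPM in the 5 animals of the middle level. In wt replicate 2 and Ts66Yah replicates 1, 2 and 4, the animals with the highest Gm15772, Rpl26 was at 0.584, 0.315, 0.165 and 0.574 CPM. In EC Rpl26 was between 0.271 and 0.574 CPM in these 4 animals and between 59.8 and 117 CPM in the other 7. The sum of both genes was not constant and ranged from 12.1 to 72.0 CPM in HIP and from 14.7 to 117 CPM in EC. As for Gapdh, the values of Rpl26 and of the coding genes below are assigned reads. A low value of Rpl26 need not mean little Rpl26 messenger RNA.

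The Gm3375 level in HIP was 6.34, 15.7, 22.7, 5.43 and 31.0 CPM in wt replicates 1 to 5, and 6.49, 17.2, 18.3, 16.1, 29.8 and 17.2 CPM in Ts66Yah replicates 1 to 6. In EC the lower level, formed by wt replicates 1 and 4 and Ts66Yah replicate 1, lay at 4.46 to 5.10 CPM, and the other 8 animals at 16.3 to 32.9 CPM. Psmb5 was at 43.4 to 50.2 CPM in HIP in the 3 animals of the lower level, and at 30.8 to 43.4 CPM in the other 8. In EC these ranges were 41.6 to 44.5 CPM and 32.5 to 40.05 CPM. The 3 animals with the least Gm3375 thus had the most Psmb5 in EC, while in HIP wt replicate 3, with 22.7 CPM of Gm3375, had as much Psmb5 as wt replicate 1 (43.4 CPM in both). The sum of both genes ranged from 47.2 to 66.1 CPM in HIP and from 46.8 to 67.9 CPM in EC.

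The Gm7224 level in HIP was 0.827, 3.48, 3.31, 0.830 and 7.13 CPM in wt replicates 1 to 5, and 1.10, 4.53, 3.31, 3.44, 5.75 and 0.667 CPM in Ts66Yah replicates 1 to 6. Its EC range was 0.380 to 0.851 CPM in the 4 animals of the lower level and 3.44 to 7.87 CPM in the other 7. Fbxo34 varied much less, from 46.9 to 68.2 CPM in HIP and from 51.7 to 72.7 CPM in EC. In HIP its 4 highest values belonged to the 4 animals with the lowest Gm7224, whereas in EC Ts66Yah replicate 6, the animal with the lowest Gm7224, had 54.2 CPM of Fbxo34.

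**Figure D3:**
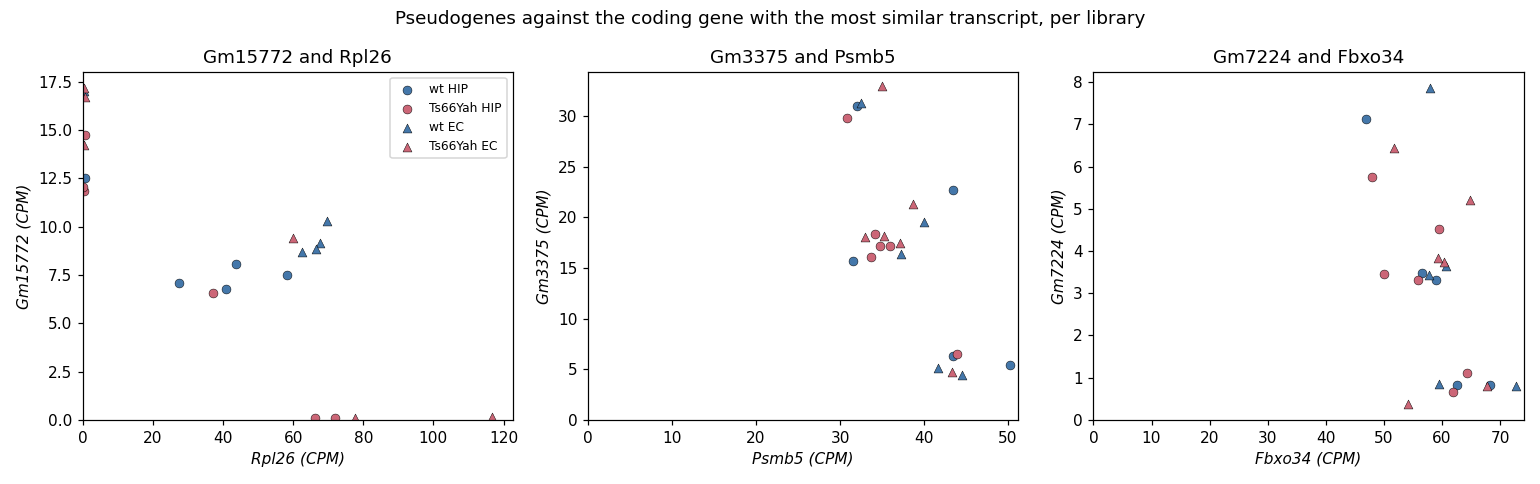
CPM of 3 pseudogenes (vertical axis) against CPM of the coding gene with the most similar transcript (horizontal axis) in the 22 libraries, with circles for HIP, triangles for EC, blue for wt and red for Ts66Yah. Libraries with 11.8 to 17.1 CPM of Gm15772 have at most 0.584 CPM of Rpl26, and for Gm3375 the libraries with the lowest values lie at 41.6 CPM of Psmb5 or above.

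The Gm13777 level in HIP was 6.13, 0.0486, 0.0196, 3.40 and 7.10 CPM in wt replicates 1 to 5, and 2.44, 0, 2.65, 0.0957, 0.0567 and 2.31 CPM in Ts66Yah replicates 1 to 6. In EC the lowest level reached at most 0.0603 CPM, the middle level 2.52 to 4.46 CPM, and wt replicates 1 and 5 had 8.26 and 8.40 CPM. The lowest level comprised 2 wt and 3 Ts66Yah animals and rested on 0 to 4 counts. Ts66Yah replicate 2 had 0 counts in both regions, which allows a level of up to 0.100 CPM in HIP and 0.0987 CPM in EC (3 counts, counting error only). Rplp1 was at 198 to 333 CPM in HIP and 244 to 437 CPM in EC. Gm11942, a processed pseudogene on chromosome 4 with 91.0% identity to Gm13777, followed the same animals, with 14.95 and 15.6 CPM in HIP in wt replicates 1 and 5 and 0.957 to 2.85 CPM in the 5 animals of the lowest Gm13777 level.

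Among the coding members, Akr1e1 (ENSMUSG00000045410, chr13:4590750-4609174, minus strand) encodes an aldo-keto reductase that reduces anhydrofructose. Its level in HIP was 15.7, 12.7, 7.23, 29.7 and 27.1 CPM in wt replicates 1 to 5, and 18.7, 6.22, 17.7, 15.5, 28.9 and 29.9 CPM in Ts66Yah replicates 1 to 6. The lowest level held wt replicate 3 and Ts66Yah replicate 2, with 9.49 and 8.31 CPM in EC, and the other 9 animals lay between 15.9 and 35.7 CPM in EC. The highest animal exceeded the lowest 4.82 times in HIP and 4.30 times in EC. No near-identical copy of this gene was found, and 3408 of the 3414 windows of its longest transcript were unique to it.

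Rpl29 (ENSMUSG00000048758, chr9:106429454-106431568, plus strand) encodes a protein of the large ribosomal subunit. Its level in HIP was 0.344, 7.95, 9.78, 8.27 and 0.531 CPM in wt replicates 1 to 5, and 4.07, 5.26, 4.02, 6.17, 7.001 and 0.191 CPM in Ts66Yah replicates 1 to 6. In EC wt replicates 1 and 5 had 0.608 and 0.734 CPM, Ts66Yah replicate 6 had 0.276 CPM, and the other 8 animals had 4.44 to 11.6 CPM. The same 3 animals, 2 wt and 1 Ts66Yah, were thus far below the other 8 in both regions. The step between Ts66Yah replicate 6 and the 2 wt animals rests on few counts. It had 8 counts in each region, and wt replicates 1 and 5 had 10 and 19 in HIP and 20 and 25 in EC. Per kilobase of exon the mean level of Rpl29 was 4.86 CPM, the fifth lowest of 46 tested Rpl genes. It had 26 near-identical copies, mostly pseudogenes, and 415 of its 796 windows were unique. Gm13841, a pseudogene on chromosome 5 with 99.4% identity over 483 bases, was at 0.587 to 0.758 CPM in HIP in the 3 animals with the lowest Rpl29 and at 0 to 0.463 CPM in the other 8, whereas in EC the ranges overlapped (0.657 to 1.497 CPM against 0 to 0.743 CPM).

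Baiap2l1 (ENSMUSG00000038859, chr5:144264526-144358112, minus strand) encodes an I-BAR protein that links membranes to the actin cytoskeleton. Its level in HIP was 46.2, 27.3, 23.7, 21.4 and 20.3 CPM in wt replicates 1 to 5, and 33.5, 52.6, 53.1, 56.8, 38.5 and 1.76 CPM in Ts66Yah replicates 1 to 6. In EC it was 75.8 CPM in wt replicate 1, 30.3 to 32.7 CPM in the other 4 wt animals, 47.0 to 93.9 CPM in 5 Ts66Yah animals, and 0.587 CPM in Ts66Yah replicate 6. Without that animal, r between the regions was 0.87. The other 10 animals counted as 1 level only narrowly, since wt replicate 2 and Ts66Yah replicate 5 lay 0.49 apart in HIP and 0.56 in EC on the log2 CPM scale. With a gap of 0.3, wt replicates 2 to 5 formed a level of their own, the only further level of at least 2 animals that held 1 genotype. Bri3 lies on the opposite strand of the same locus and did not share the pattern (r = 0.02 over 11 animals).

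Pttg1 (ENSMUSG00000020415, chr11:43420250-43426251, minus strand) encodes securin, the inhibitor that holds back the protease separase until sister chromatids part. Its level in HIP was 13.4, 0.438, 13.4, 15.4 and 0.671 CPM in wt replicates 1 to 5, and 12.5, 0.595, 14.5, 0.622, 27.9 and 27.3 CPM in Ts66Yah replicates 1 to 6. The same animals formed the low level in EC, wt replicates 2 and 5 and Ts66Yah replicates 2 and 4, at 0.323 to 0.676 CPM. The middle level was 13.9 to 16.3 CPM in EC, and Ts66Yah replicates 5 and 6 had 38.7 and 25.2 CPM. All 1625 windows of its longest transcript were unique to it.

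Gm43305 (ENSMUSG00000105703, chr14:54292443-54297456, minus strand) is a processed transcript of unknown function. Its level in HIP was 4.07, 2.04, 2.86, 1.36 and 0 CPM in wt replicates 1 to 5, and 1.79, 2.71, 2.01, 2.03, 0 and 1.001 CPM in Ts66Yah replicates 1 to 6. In EC wt replicate 5 had 1 count, Ts66Yah replicate 5 had 0, and the other 9 animals had 0.967 to 3.10 CPM. The counts of 0 allow a level of up to 0.0866 CPM in wt HIP, 0.0872 CPM in Ts66Yah HIP and 0.100 CPM in Ts66Yah EC.

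To relate these steps to genotype, Ts66Yah and wt were compared within each region with edgeR. The genes were chosen by their deviations from the group means, and their spread within a group is large. Such a spread makes a call less likely and an overlap of the groups more likely. The counts of called genes and of overlapping groups below follow in part from the choice. They cannot show that the steps are independent of genotype. In HIP, 0 of the 10 genes passed the adjusted threshold of 0.05, against 109 of 18452 genes tested, or 0.591%. In EC, 0 of the 10 passed, against 50 of 17658 genes, or 0.283%. DESeq2 and limma voom also called 0 of the 10 in either region. Over all genes, DESeq2 called 369 of 17823 in HIP and 109 of 22419 in EC. With limma voom this was 111 of 18452 and 50 of 17658. In edgeR, 0 of the 10 had an unadjusted p under 0.05, beside 2188 of 18452 genes in HIP and 1103 of 17658 in EC. The values of wt and Ts66Yah overlapped for all 10 genes in both regions, while the groups of 1.87% of the tested genes in HIP and 0.957% in EC did not overlap. The largest difference was that of Gm13777, with a log2 fold change of -1.36 ± 1.05 (SE, 5 wt and 6 Ts66Yah, edgeR adjusted p = 0.66) in HIP and -1.46 ± 1.11 (adjusted p = 0.93) in EC. For Pttg1 the log2 fold change was 0.70 ± 0.91 (SE) in HIP and 0.79 ± 0.97 in EC, and for Gm13394 it was 0.66 ± 0.65 and 0.50 ± 0.69. For Baiap2l1 the values were 0.51 ± 0.51 and 0.66 ± 0.63. Single libraries moved these values, which none of the fits called. Without 1 library in turn, Pttg1 ranged from 0.38 to 1.005 in HIP and from 0.31 to 1.13 in EC, Gm13394 from 0.33 to 0.79 and from 0.18 to 0.62, Baiap2l1 from 0.37 to 0.76 and from 0.52 to 1.02, and Gm13777 from -1.70 to -0.85 and from -1.99 to -1.05. The remaining 6 genes had log2 fold changes between -0.38 (Gm43305 in HIP) and 0.29 (Gm3375 in EC), each smaller than its standard error. The standard errors include the steps between animals of a group. They are not limits of detection, since differences larger than their standard error, such as those of Gm13777, were not called with 5 and 6 animals. The median log2 fold change over the 10 genes was 0.03 in HIP and 0.02 in EC, beside 1.39e-05 and -0.0045 over all genes tested.

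**Figure D4:**
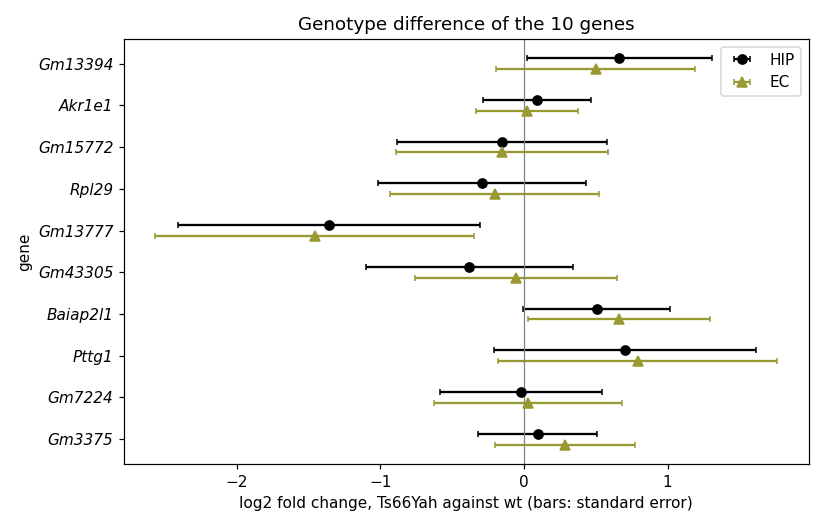
Log2 fold change of Ts66Yah against wt for the 10 genes in HIP (black circles) and EC (olive triangles) from edgeR, with bars for the standard error (5 wt and 6 Ts66Yah animals). Gm13777 lies lowest, at -1.36 and -1.46, and none of the 10 genes passed the adjusted threshold.

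Animals of different genotype could share the same steps. With the gap of 0.5, wt replicate 2 and Ts66Yah replicate 4, the pair with the most shared levels, stood on the same level for all 10 genes. Their Baiap2l1 values within that level were 27.3 and 56.8 CPM in HIP and 32.0 and 91.5 CPM in EC. For Gm13394, Akr1e1, Rpl29, Gm43305, Baiap2l1, Gm7224 and Gm3375 the shared level was the largest, with 7 to 10 animals. With a gap of 0.3 this pair shared 9. Over the 30 pairs of animals with different genotypes the median number of shared levels was 5.5, with a range of 2 to 10, and over the 25 pairs with the same genotype it was 5, with a range of 2 to 8. With a gap of 0.3 the medians were 3 and 4, so that their order turned, and with a gap of 1 they were 6.5 and 6. Ts66Yah replicate 6 was on the lowest level for 4 genes (Gm15772, Rpl29, Baiap2l1 and Gm7224) and Ts66Yah replicate 3 for 0 of the 10, while each of the other animals was there for 2 or 3 genes.

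The regions were compared over all 22 libraries. The genes were chosen for large differences between animals that repeat in both regions, which makes the spread large in a fit without the animal and small in a fit with it, so the change in calls between the fits follows from the choice and the p-values of the blocked fit are not independent of it. Without regard to the animal, 0 of the 10 genes passed between EC and HIP (edgeR, adjusted p under 0.05), where 63.7% of the 19074 genes tested did. In this fit 0 of the 10 had an unadjusted p under 0.05, beside 12733 of the 19074 genes. With the animal as a block, so that each EC library was compared with the HIP library of its own mouse, 6 of the 10 genes passed, all of them higher in EC, against 68.1% of all genes in either direction and 33.2% higher in EC. The log2 fold change of EC against HIP in this blocked fit was 0.55 ± 0.10 (SE, adjusted p = 0.00026, higher in EC in 10 of 11 animals) for Baiap2l1, 0.37 ± 0.04 (adjusted p = 8e-07, 10 of 11 animals) for Gm13394 and 0.31 ± 0.04 (adjusted p = 1.6e-06, 11 of 11 animals) for Akr1e1. For Gm15772 it was 0.36 ± 0.07 (adjusted p = 0.00023, 10 of 11 animals), for Rpl29 0.32 ± 0.07 (adjusted p = 0.0011, 10 of 11 animals) and for Gm13777 0.28 ± 0.11 (adjusted p = 0.041, 8 of 11 animals). The other members, Gm43305, Pttg1, Gm7224 and Gm3375, did not pass in the blocked fit, with log2 fold changes between -0.16 and 0.10. In the fit without the block, leaving out Ts66Yah replicate 6 brought 1 gene, Baiap2l1, past the threshold. For the genotype difference between the regions, 0 of the 10 genes and 0 of 19074 genes passed in edgeR, where 388 genes had an unadjusted p under 0.05, or 726 with the animal as a block.

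The members did not follow each other closely. Of their 45 pairs, 1 had an r of at least 0.7 in size across animals, that of Gm7224 and Gm3375 (r = 0.77), both on chromosome 7 but 38.9 Mb apart. Their closest coding genes also share a chromosome, with Fbxo34 at chr14:47450421-47531962 and Psmb5 at chr14:54614119-54618022. The median size of r over the pairs was 0.31. For each member, the genes with the most similar animal pattern were sought among genes with an r of at least 0.9 between their own regions. The genes most like Rpl29 lay on the same chromosome, Acaa1a, a peroxisomal thiolase (r = 0.96, 12.9 Mb away), and C920006O11Rik (r = 0.96, 28.3 Mb away). Ublcp1, most like Pttg1 (r = 0.88), lay 1.03 Mb from it, and Thg1l, with the opposite pattern (r = -0.84), 2.53 Mb from it. Gm26782, most like Gm43305 (r = 0.86), lay 3.42 Mb from it on chromosome 14, and Cdk5rap1 (r = 0.84) on chromosome 2.

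For the pseudogenes, the most similar genes lay on other chromosomes than the pseudogene. Those of Gm7224 on chromosome 7 were Gm8417 (r = 0.98) and Tmem260 (r = -0.91), both on chromosome 14, at 2.35 and 0.996 Mb from Fbxo34. Those of Gm3375, also on chromosome 7, were Ddhd1, a phospholipase (r = -0.85), and Wdhd1, a replication factor (r = -0.83), both on chromosome 14, at 9.03 and 7.37 Mb from Psmb5. Both lay nearer to Fbxo34 than to Psmb5, with Ddhd1 at 1792 kb from Fbxo34. Tmem260 was at 24.8 to 26.9 CPM in HIP in the 4 animals with the lowest Gm7224 and at 10.2 to 19.7 CPM in the other 7. Those of Gm13394 were Gm4987 on chromosome X (r = 0.99) and Mcmdc2 on chromosome 1 (r = 0.93), and those of Gm15772 AC127331.2 (r = 0.98) and Bod1-ps (r = 0.95). Gm13777 was most like Gm11942 (r = 0.98) and Amd-ps4 (r = 0.87), both on chromosome 4. Of the coding members, Akr1e1 was most like Zfp991 (r = 0.96) and Zfp933 (r = 0.94), zinc finger genes on chromosome 4, and Baiap2l1 most like Gm46432 and 9330104G04Rik (both r = 0.85). These genes were picked as the highest of many over 11 animals, so their r is a description.

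Within 2 Mb of the 10 members lay 453 tested neighbours, counted once per member. Of these, 5 (1.10%) had an r of at least 0.9 in size with the member, beside 0.0534% over all pairs of a member and a tested gene, and 30 (6.62%) had at least 0.7, beside 2.47%. Rpl29 accounted for 4 of the 5, namely Abhd14a, 8.48 kb away (r = 0.94), Poc1a, a centriolar protein (r = 0.94), Ppm1m, a protein phosphatase (r = 0.95), and Nprl2, a regulator of the mTOR pathway (r = 0.94). Abhd14a was at 10.5 to 11.9 CPM in HIP in the 3 animals with the lowest Rpl29 and at 13.4 to 21.5 CPM in the other 8. The fifth was Gm7353 near Gm3375 (r = 0.92), which had an r of -0.62 between its own regions. The 30 with at least 0.7 were also unevenly spread, with 16 of 80 neighbours of Rpl29 and 8 of 68 of Gm43305. Gm15772, Baiap2l1 and Gm7224 had 0, and the other members 1 or 2 each. Neighbours share their chromosome, so these counts are not independent observations. When the window was set around the closest coding gene of a pseudogene instead, a choice made after the values had been seen, 8 of 30 genes (26.7%) near Fbxo34 had an r of at least 0.7 in size with Gm7224, beside 4.65% of all genes. Near Psmb5, 10 of 66 genes (15.2%) did so with Gm3375, beside 3.20% of all genes. Near Gapdh this was 1 of 57 genes (1.75%) with Gm13394, beside 1.46% of all genes. Near Rpl26 it was 5 of 105 (4.76%) with Gm15772, beside 2.84%, and near Rplp1 1 of 23 (4.35%) with Gm13777, beside 1.22%. The genes near Psmb5 most like Gm3375, Ngdn, Ppp1r3e and Myh6, had an r of 0.42, 0.83 and 0.54 between their own regions. Gm7224 and Gm3375 were correlated (r = 0.77) and their closest coding genes share chromosome 14. The shares near Fbxo34 and Psmb5 are therefore not separate observations.

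The relatives of the coding members are described with their own r between the regions, which lies below that of the members by the way these were chosen. Of 16 aldo-keto reductases 8 were tested, and the 7 other than Akr1e1 had a median r of 0.19 between the regions and at most 0.73 (Akr1c14, on the same chromosome). Akr1a1, the general aldehyde reductase, ranged from 309 to 342 CPM in HIP, whereas Akr1e1 ranged from 6.22 to 29.9 CPM. Of the 11 other genes of securin and sister chromatid cohesion none had an r over 0.9, with a highest value of 0.65 (Pds5a), and separase itself (Espl1) stayed between 1.27 and 2.13 CPM in HIP. Of the 4 other I-BAR genes the highest r was 0.72 (Mtss1l), and Baiap2, the best known member of the family in neurons, lay between 225 and 278 CPM in HIP. Among 45 tested Rpl genes other than Rpl29 the median r was 0.27, and 2 exceeded 0.9, Rpl26 (r = 0.98) and Rplp0 (r = 0.97). In HIP and EC, 0 of these 7, 11, 4 and 45 genes were called between genotypes in edgeR in either direction. Over all tested genes 0.591% in HIP and 0.283% in EC were called, so few calls would be found in lists of this size.

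A list of 8 genes known to differ between inbred strains was examined beside the members. It was chosen with earlier results of these data known, so the number of its genes with a high r is a description without a test. Of the listed genes, 6 were tested. Of these, 4 had an r over 0.9 between the regions, Wdfy1, an endosomal adaptor protein (r = 0.98), Glo1, the glyoxalase that removes methylglyoxal (r = 0.98), Gabra2, a subunit of the GABA-A receptor (r = 0.95), and Alad, an enzyme of heme synthesis (r = 0.93), beside 1.68% of all genes. Wdfy1 was at 14.2 and 15.2 CPM in HIP in Ts66Yah replicates 3 and 4 and at 29.8 to 52.6 CPM in the other 9 animals. Gabra2 was at 101 CPM in HIP and 66.8 CPM in EC in wt replicate 2 and between 145 and 308 CPM in all other libraries. H2-Ea-ps, a class II histocompatibility pseudogene (r = 0.89), had 0 CPM in both regions of wt replicate 2 and Ts66Yah replicates 5 and 6. Nnt, a mitochondrial transhydrogenase, had an r of 0.08 and did not exceed 0.830 CPM in any library. None of the 6 was called between genotypes in either region in edgeR, where 0.591% of all tested genes in HIP and 0.283% in EC were. The genotype of the animals at any of these loci was not analysed here, so whether the levels of the 10 genes follow inherited alleles was not tested.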

How the data were processed

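RNA-Seq libraries from HIP and EC of 11 mice were analysed, in the groups the labels give. The study's methods state single-end reads of 50 bases, alignment to GRCm38 by Hisat2, and counting over Ensembl release 99 genes by HTSeq-count. The strand setting and the treatment of reads with several matches are not given in the sources used here. The labels describe poly(A) selection with a stranded kit, whereas the methods also name a kit with ribosomal RNA depletion. The authors deposited raw counts per gene, whole numbers that were not normalized. All 22 columns were mapped to samples, and 0 columns were left without a sample. Tables of the authors' own comparisons, with fold changes and p-values, were not used.

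Counts were scaled to CPM with TMM factors, with a prior count of 2 on the log2 scale. Genotype was tested within each region, and region and its interaction with genotype over 4 group means, with edgeR 4.0.16 (R 4.3.3, filterByExpr, quasi-likelihood test) and Benjamini-Hochberg adjustment over all genes tested, at a threshold of 0.05. HIP and EC of an animal were paired: their deviations from the group means over genes correlated with r of 0.21 to 0.45 in all 11 animals. The SE of an edgeR log2 fold change was its size divided by the square root of the F statistic of the quasi-likelihood test. P-values of the genotype fits within a region measure the spread between animals. With the animal as a block they measure how the difference of EC against HIP varied between animals. The region and interaction fits without the block treat the 22 libraries of 11 mice as independent. Positions and transcripts came from GENCODE M21, in which 55144 of 55385 identifiers matched, and transcripts were aligned with blastn 2.17.0. DESeq2 1.42.0, limma voom (limma 3.58.1), RLE factors, other filters, all 22 libraries in 1 fit, replicate numbers as a block and leaving out libraries or animals were alternatives.

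The members and the gene lists were chosen with earlier results of these data known. Named genes were the members, per member the 2 non-members with the most similar animal pattern (own regions r of at least 0.9), neighbours within 2 Mb with r of at least 0.9, near-identical copies and the listed families. Gm11942, Gm13841, Tmem260, Abhd14a and the single strain-variable genes were picked for description after their values had been seen. Intervals and limits for counts of 0 cover counting error only.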

Additional observations from a re-analysis of the deposited data

Results flagged for a closer look

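Within 40 groups (10 genes in 4 groups of 5 or 6 animals), 15 lowest or highest samples stood apart from the rest of their group by Dixon's criterion at 95% on log2 CPM, in 6 of the genes. Chance flags about 5% of groups, and since the genes were chosen for large steps between animals, such samples follow from the choice. For Gm13394 they were wt replicate 3 (0.176 CPM in HIP and 0.144 CPM in EC) and Ts66Yah replicate 2 (197 CPM in HIP and 222 CPM in EC). For Gm15772 it was wt replicate 2 (12.5 and 17.0 CPM), and for Rpl29 it was Ts66Yah replicate 6 (0.191 and 0.276 CPM). For Baiap2l1 they were Ts66Yah replicate 6 (1.76 and 0.587 CPM) and, in EC, wt replicate 1 (75.8 CPM). For Gm43305 they were wt replicate 5 in HIP (0 CPM) and Ts66Yah replicate 5 in HIP and EC (0 CPM in both). For Gm3375 it was Ts66Yah replicate 1 in EC (4.69 CPM). In HIP this value was 6.49 CPM, which did not meet the criterion. The cause was not tested.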

How the results depend on the processing

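For the genotype comparisons, 0 of the 10 genes were called under any alternative and without any library. This follows in part from the choice of genes with a large spread within groups. Over all genes, DESeq2 called 369 genes in HIP and 109 in EC, the replicate number as a block left 61 in HIP, and 1 fit of all 22 libraries gave 79 in EC. Without a library the counts ranged from 76 to 148 in HIP and from 37 to 58 in EC. Same-numbered wt and Ts66Yah animals correlated with r from -0.007 to 0.177, so the numbers do not pair the genotypes, and the cause of these changes was not tested.

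Log2 fold changes that no fit called changed sign in places. With the replicate block, HIP values became -0.060 for Akr1e1, 0.51 for Rpl29 and 0.41 for Gm7224, and EC values -0.082 for Akr1e1, 0.52 for Rpl29 and 0.080 for Gm43305. With limma voom, Baiap2l1 was -0.020 in HIP and -0.13 in EC, and in EC Rpl29 was 0.13 and Gm7224 -0.044. With DESeq2, Gm7224 was 0.0042 in HIP. Without a library, HIP values ranged from -0.12 to 0.33 for Akr1e1, -0.47 to 0.11 for Gm15772, -0.58 to 0.054 for Rpl29, -0.29 to 0.51 for Gm7224 and -0.12 to 0.46 for Gm3375. EC values ranged from -0.17 to 0.24 for Akr1e1, -0.40 to 0.10 for Gm15772, -0.49 to 0.12 for Rpl29, -0.37 to 0.30 for Gm43305 and -0.25 to 0.62 for Gm7224.

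Between the regions the animal as a replicate block raised the members called from 0 to 6, and leaving out an animal gave 0 to 1 (without Ts66Yah replicate 6). Gm3375 was -0.040 with the block, -0.0047 without a filter on low counts and from -0.030 to 0.029 without an animal. On the CPM scale 3 of the 10 genes had r over 0.99, with Spearman's rho 0, and without an animal 9 to 10. The lowest r without an animal was 0.874, for Baiap2l1 without Ts66Yah replicate 6, and 0.966 for Gm13394 without wt replicate 3. The number of levels changed in most genes with the gap. With a gap of 1, Akr1e1 had 1 level in place of 2, and Gm15772, Rpl29, Gm13777 and Pttg1 had 2 in place of 3. With a gap of 0.3, Gm7224 and Gm13777 had 4 levels, and Akr1e1, Gm43305, Baiap2l1 and Gm3375 had 3 in place of 2. Only Gm13394 had 3 levels with every gap tried. Levels under about 0.1 CPM rest on 0 to 4 counts and cannot be ranked among themselves.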
